A study of Homo sapiens with 6 samples.

Results

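The compartment of 7 genes for drug efflux pumps was followed in T47D breast cancer cells: ABCB1, ABCB4, ABCC1, ABCC2, ABCC3, ABCC4 and ABCG2. The genes were listed by name, as members of the ATP-binding cassette (ABC) family known for moving drugs or their conjugates out of cells. The rule that lists them uses no score. The genes and the lists set beside them were nonetheless chosen with earlier results of these data known. They are 7 of the 19710 protein-coding genes to which a score could be given. Each gene was read from the 100 Kb bins that its body overlaps and from 10 bins on either side, on genome build hg19.

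Tethered conformation capture (TCC), a Hi-C protocol that ligates crosslinked DNA while it is held on beads, gave 6 libraries. The cell line, T47D, was long ago established from a breast cancer and carries the estrogen receptor. All 5 parental libraries came from cells kept without hormone for 72 h: T0 received nothing further, and T1, T4, T16 and T24 received 100 nM β-estradiol (E2) for 1, 4, 16 and 24 h. The sixth library came from TamR, a T47D line with acquired tamoxifen resistance, which carries the label untreated, whereas the methods describe TamR culture in medium that contains tamoxifen. TamR therefore differed from T0 in the line, the medium and the drug, and these cannot be told apart here. No E2 time course of the TamR line was analysed here.

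Each bin carried 1 score, the first eigenvector of the contacts between chromosomes, and every score is given here multiplied by 1000. A bin above 0 belongs to compartment A, the open and active part of the genome, and a bin below 0 belongs to compartment B, the closed and inactive part. A score has no absolute unit and is scaled within its library, so that a difference between libraries is a difference of relative position. A gene's score is the mean over its body bins. Every condition was represented by 1 library. Differences between conditions were therefore not checked against replicates, and no p-value is given. The 5 parental libraries, which are conditions and not replicates, supply the only spread against which TamR was set. Scores of 27898 of 30376 bins were present in all 6 libraries, 44.01% to 47.58% of the bins scored in a library were A, and the number of contacts behind a score is unknown from these values. Across bins Pearson's r lay between 0.985 and 0.996 when parental libraries were paired with each other (10 pairs) and between 0.894 and 0.901 when TamR was paired with them, where bins of a chromosome are not independent points. The scores carry no RNA measurement, so the breast epithelial label was not checked against marker genes.

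ABC transporters bind and hydrolyse ATP to carry substrates across membranes. Several of them lie in the plasma membrane of cancer cells, where they lower the amount of drug inside the cell, and their genes are studied for this reason in resistance to chemotherapy. The same pumps carry bile components, conjugated steroids and signalling molecules in healthy liver, gut and barrier tissues. Compartment A and B membership is a property of large chromatin stretches, and a gene can lie in A without being transcribed.

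None of the 7 genes changed compartment between T0 and TamR, beside 9.6% of all protein-coding genes (4.45% from A to B and 5.15% from B to A), and none left its T0 compartment in any E2 library, beside 5.31%. ABCC1, ABCC2, ABCC3 and ABCG2 were in A in all 6 libraries, as were 71.6% of all genes, and T0 alone had 77.4% of all genes in A. ABCB1, ABCB4 and ABCC4 were in B in all 6 libraries, as were 16.6% of all genes. Each of the 16 bins under the gene bodies also kept its sign in all 6 libraries. With only 7 genes, of which ABCB1 and ABCB4 share a bin, a count of 0 is no result about these genes beside shares of this size.

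**Figure D1:**
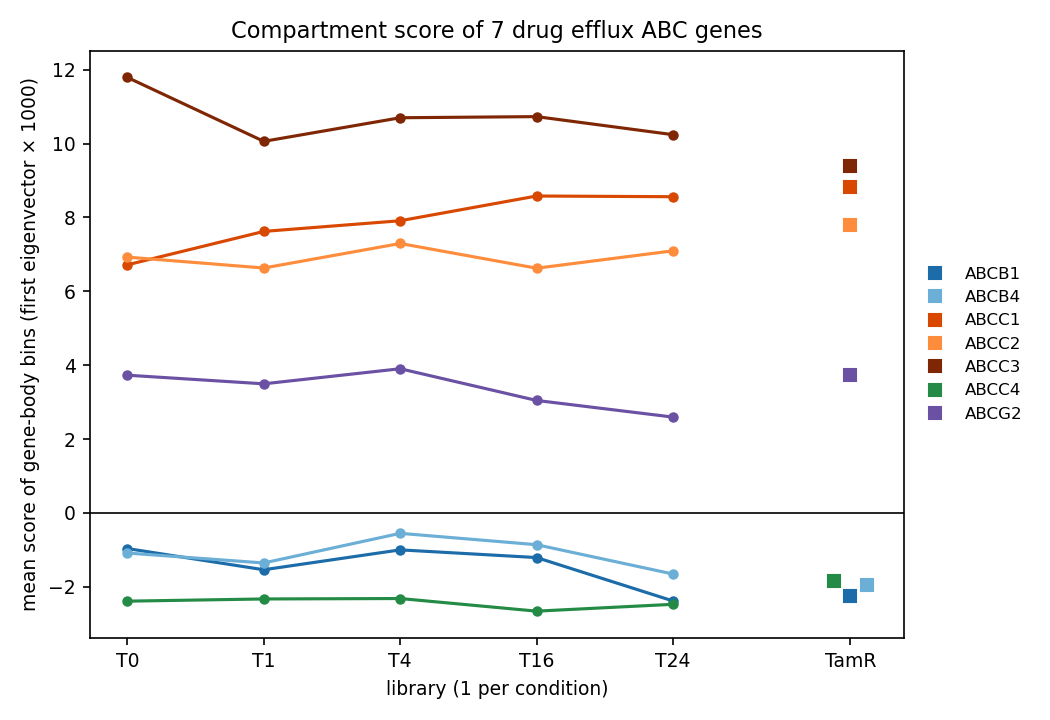
Gene-body score (first eigenvector × 1000, vertical axis) of each of the 7 genes in the 5 parental libraries (circles joined by lines) and in TamR (squares, ABCB4 and ABCC4 moved sideways for legibility), with 1 library per condition and the border between A and B at 0. No line or square crosses 0, and the 3 genes below it stay between -2.66 and -0.555.

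The DNA just before the transcript starts differed in base content between these genes, and also between starts of the same gene. RefSeq promoter windows (table build GRCh38.p14) were held for 4 of the 7 genes, ABCB1, ABCC2, ABCC4 and ABCG2, and all 9 windows matched GRCh37 at 1 place each. ABCB4, ABCC1 and ABCC3 had no window. The stretches below are the parts of the 250 bases upstream of a start that lie outside the gene's own annotated exons, read 5′ to 3′ on the gene's strand. They were chosen to set a CpG-rich start against CpG-poor ones in opposite compartments. Capitals mark GGTCA, 1 arm of the estrogen response element, or TGACC, the same arm read on the other strand.
ABCB1 upstream start, chr7:87342640-87342861, minus strand: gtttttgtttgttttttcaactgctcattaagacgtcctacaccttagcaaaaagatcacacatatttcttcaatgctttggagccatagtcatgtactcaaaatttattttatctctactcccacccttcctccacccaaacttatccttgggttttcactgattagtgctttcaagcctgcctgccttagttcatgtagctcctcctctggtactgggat
ABCB1 downstream start, chr7:87230395-87230450, minus strand: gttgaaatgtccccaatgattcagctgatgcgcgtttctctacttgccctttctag
ABCC2, chr10:101542147-101542396, plus strand: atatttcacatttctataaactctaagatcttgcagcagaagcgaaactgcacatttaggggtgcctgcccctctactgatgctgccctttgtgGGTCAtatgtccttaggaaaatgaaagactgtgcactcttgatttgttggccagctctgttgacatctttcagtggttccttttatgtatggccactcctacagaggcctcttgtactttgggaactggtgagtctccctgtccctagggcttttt
ABCC4, chr13:95953730-95953955, minus strand: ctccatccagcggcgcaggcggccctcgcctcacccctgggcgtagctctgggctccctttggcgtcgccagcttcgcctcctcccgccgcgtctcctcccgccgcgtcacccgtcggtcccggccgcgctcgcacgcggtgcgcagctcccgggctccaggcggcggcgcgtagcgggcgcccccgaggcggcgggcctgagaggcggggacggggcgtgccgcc
ABCG2, chr4:89080177-89080311, minus strand: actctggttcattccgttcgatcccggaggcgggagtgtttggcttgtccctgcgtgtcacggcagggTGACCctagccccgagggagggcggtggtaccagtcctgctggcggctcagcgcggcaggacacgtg

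The whole 250-base window of ABCC4 was 80.4% G and C with 42 CpG, beside medians of 58% and 11 CpG over all RefSeq windows, and its bin was below 0 in all 6 libraries. The ABCC2 window was 45.6% G and C with 1 CpG, and its bin was above 0 in all 6 libraries, at 6.32 in T0 and 7.95 in TamR. The upstream ABCB1 window was also poor in CpG, with 1 CpG and 39.2% G and C, and lay in a B bin. The downstream ABCB1 window held 12 CpG and lay in the neighbouring bin, also B. The ABCG2 window from which the stretch above is taken was 71.2% G and C with 27 CpG, and its bin was in A in all 6 libraries. A window that overlaps it was 72.4% with 29 CpG, and a further window, which overlaps only that of 72.4%, was 73.6% with 32. The other ABCG2 windows were poor in CpG: 43.6% with 5 CpG, and 40% with 2 CpG at the annotated gene start. The full estrogen response element, GGTCA followed after 3 bases of any kind by TGACC, to which the estrogen receptor binds, was found in none of the 9 windows and in 0.0399% of 35116 windows. The single arm GGTCA, searched on both strands, was found in the ABCC2 window at position -156 from the start. It was also found in 3 ABCG2 windows, while 32.6% of all windows hold it. The ABCG2 windows of 71.2% and 72.4% overlap and hold the same site. The HindIII letters AAGCTT, where the library enzyme cuts, were in none of the 9 windows and in 5.02% of all. These are matches of letters in short windows, and no binding was measured here.

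ABCB1 (chr7:87132333-87342639, minus strand, ENSG00000085563.15_10) encodes P-glycoprotein, the efflux pump for many hydrophobic drugs, taxanes and anthracyclines among them. Its 3 bins averaged -0.967 in T0, -1.54 in T1, -1.003 in T4, -1.21 in T16, -2.39 in T24 and -2.25 in TamR. T24 and TamR were the deepest in B, T24 slightly deeper, and the other 4 libraries lay nearer to the border. The TamR minus T0 difference was -1.28, but TamR lay inside the parental range, whose mean was -1.42 with an SD of 0.586 over 5 libraries. Set against T1 and not T0, the TamR difference was -0.710. All 4 E2 libraries were below T0, as for 25.4% of all genes. The T24 minus T0 difference was -1.42, at percentile 5.32 among all genes, and the median difference of genes in the same decile of G and C content (36.9% for ABCB1) was -0.227.

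ABCB4 (chr7:87031012-87109751, minus strand, ENSG00000005471.19_15) encodes the phosphatidylcholine translocator of the bile canaliculus, a close relative of P-glycoprotein. Its 2 bins averaged -1.09 in T0, -1.36 in T1, -0.555 in T4, -0.863 in T16, -1.66 in T24 and -1.95 in TamR. TamR was the lowest of the 6, with a difference of -0.289 from T24, and T4 was the nearest to the border. ABCB4 and ABCB1 share the bin chr7:87100001-87200000, with scores of -1.59 in T0, -0.410 in T4, -2.34 in T24 and -2.02 in TamR, so that their values are not independent. TamR lay below all 5 parental libraries for 2 of the 7 genes, ABCB4 and ABCC3, beside 46.7% of all genes.

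The change around this pair was broader than the genes. In the ABCB1 window all 23 bins scored lower in TamR than in T0, beside 55% of all bins, and 20 of the 23 lay below all 5 parental libraries, beside 43.6%. The differences ran from -3.19 to -0.277, with a median of -1.67, and the body mean of -1.28 was smaller in size than the flank means of -1.60 and -1.75. T24 was lower than T0 in 21 of the 23 bins, beside 51.3%. Neighbouring bins of 1 chromosome are not independent, and each condition had only 1 set of scores, so these counts describe the locus in these libraries.

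Only 1 bin of that window changed compartment, chr7:86800001-86900000, which went from 0.102 in T0 to -2.47 in TamR and was already below 0 in all 4 E2 libraries. It holds TMEM243, at 0.102 in T0 and -2.47 in TamR. With this bin above 0, the unbroken B stretch around ABCB1 and ABCB4 was 4.7 Mb long in T0 (chr7:86900001-91600000). It measured 10.5 to 10.8 Mb in the E2 libraries and 14.7 Mb in TamR (chr7:77400001-92100000). Most of the lengthening in the E2 libraries thus turned on a bin close to the border. The nearest genes were lower in TamR too: CROT, a peroxisomal carnitine acyltransferase, scored -0.406 in T0 and -1.92 in TamR, RUNDC3B, which overlaps ABCB1, scored -0.788 and -2.31, and the mitochondrial carrier SLC25A40 scored -0.918 and -2.20. Over the whole of chromosome 7 the TamR minus T0 difference had a mean of 0.350 and a median of -0.0972.

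**Figure D2:**
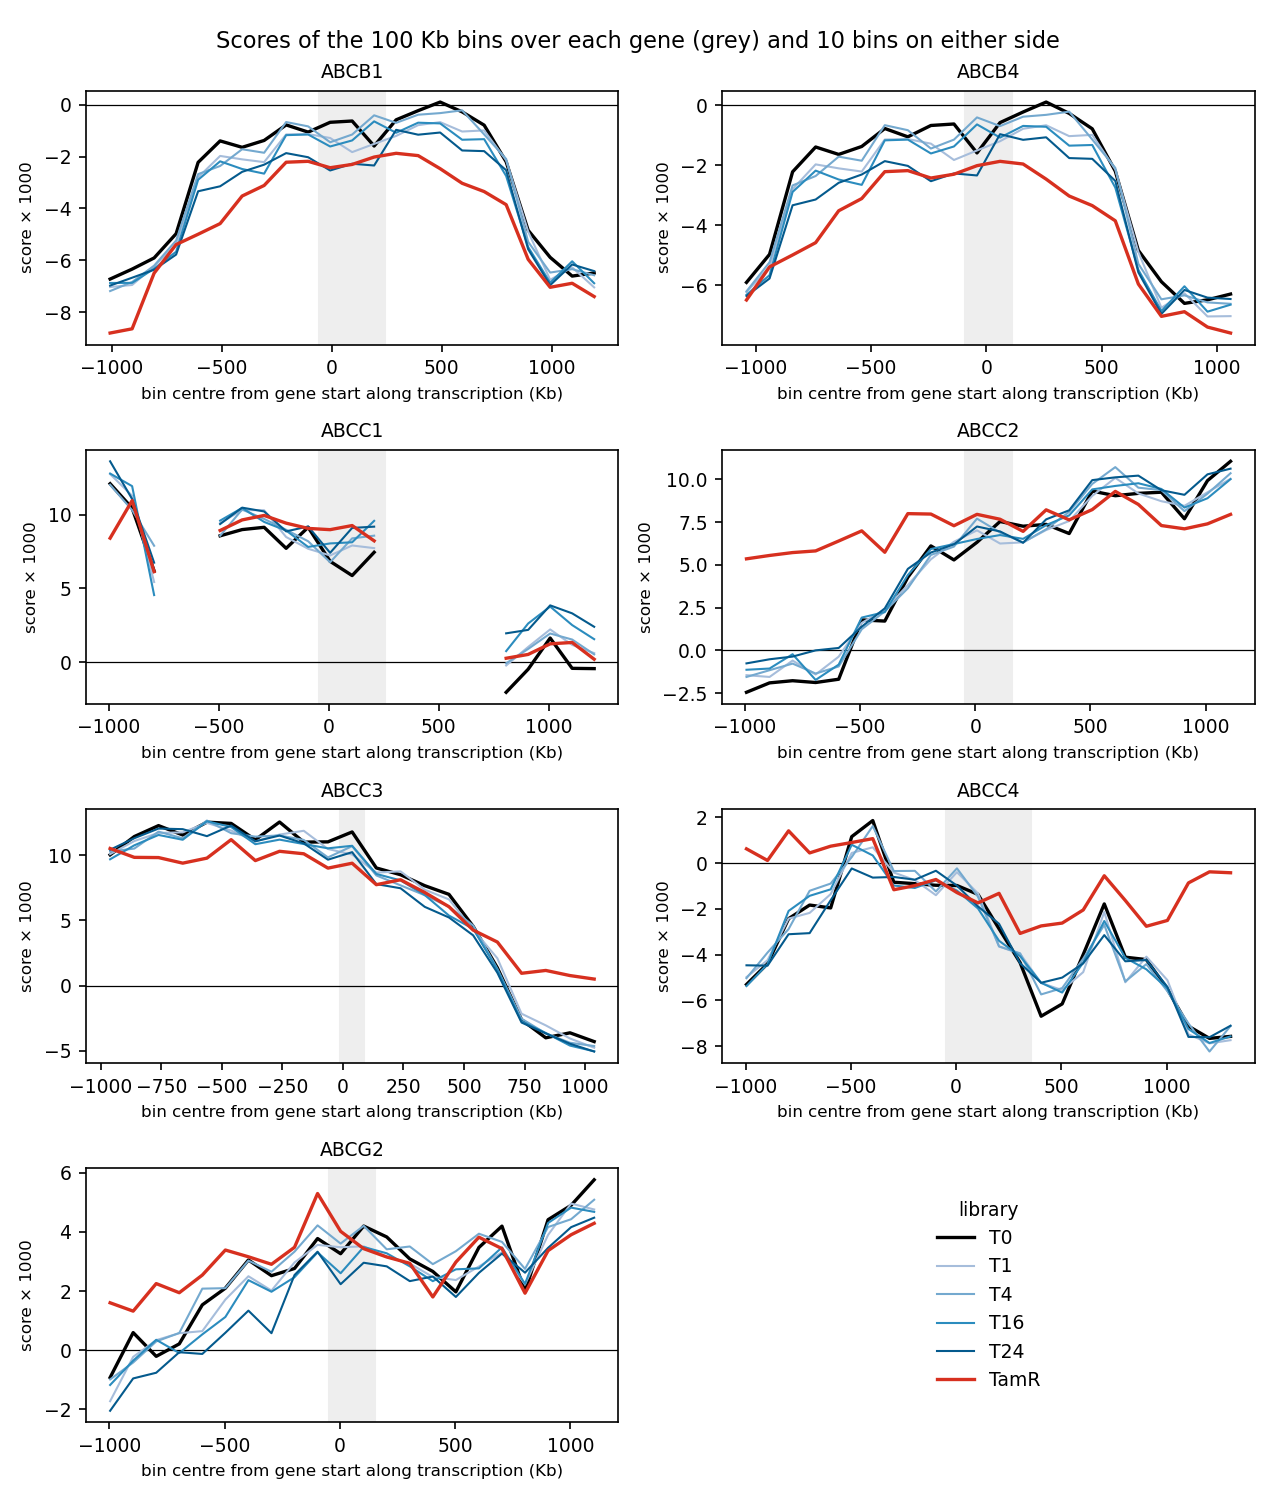
Scores of single bins (first eigenvector × 1000, vertical axis) against distance of the bin centre from the gene start along the direction of transcription (Kb), for the 7 genes in 6 libraries, with body bins in grey, gaps where a bin had no score, and vertical scales that differ between panels. In the ABCB1 and ABCB4 panels TamR (red) is below T0 (black) at every bin, and below all parental libraries at most bins. TamR also leaves the parental libraries on parts of the flanks in the ABCC2, ABCC3, ABCC4 and ABCG2 panels.

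ABCC1 (chr16:16042995-16237114, plus strand, ENSG00000103222.20_14) encodes MRP1, which exports glutathione and glucuronide conjugates and several anticancer drugs. Its 3 bins averaged 6.72 in T0, 7.62 in T1, 7.91 in T4, 8.58 in T16, 8.56 in T24 and 8.82 in TamR. T0 was the lowest of the 6, and TamR was the highest by 0.237. The gene was above T0 in all 4 E2 libraries, as were 27.3% of all genes, and the only member to be so. The TamR minus T0 difference was 2.10 and the T24 minus T0 difference 1.84, at percentiles 85.5 and 91.1 among all genes. Set against T1, the TamR difference was 1.20. Genes in the same decile of G and C content had a median T24 difference of 0.485. The middle bin of the gene went from 5.87 in T0 to 9.09 in T24 and 9.26 in TamR, and the last bin, shared with ABCC6, peaked at T16 with 9.57 and was 8.22 in TamR.

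Scores around ABCC1 were broken by unscored stretches, with 16 of 23 bins scored and 5 unscored bins directly after the gene. The A stretch that holds the gene therefore measured 0.8 Mb in all 6 libraries, ended by bins without a score and not by a change of sign. All 16 scored bins were higher in T24 than in T0, beside 48.7% of all bins. Over the 5 scored bins beyond the gap (chr16:16800001-17300000) the mean was -0.333 in T0, 0.973 in T1, 0.977 in T4, 2.25 in T16, 2.75 in T24 and 0.726 in TamR. Of these, 4 changed from B in T0 to A in TamR, and 3 of these 4 were above 0 in all 4 E2 libraries, with a mean over the 4 bins of 2.47 in T24 and 0.594 in TamR. XYLT1, a xylosyltransferase gene whose body reaches into that stretch, scored 0.444 in T0, 3.24 in T24 and 1.52 in TamR. The mean T24 minus T0 difference over all of chromosome 16 was 0.686.

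ABCC2 (chr10:101542397-101612351, plus strand, ENSG00000023839.12_13) encodes MRP2, the apical pump for bilirubin glucuronides and drug conjugates. Its 2 bins averaged 6.93 in T0, 6.63 in T1, 7.30 in T4, 6.63 in T16, 7.10 in T24 and 7.81 in TamR. TamR was above all 5 parental libraries by 0.512, and the parental libraries differed little, with an SD of 0.292. TamR lay above all 5 for 3 of the 7 genes, ABCC1, ABCC2 and ABCC4, beside 30.4% of all genes, and outside the parental range in either direction for 5, beside 77.1%. The gene's own difference of 0.882 was small next to that of its neighbourhood: the 10 bins at lower coordinates averaged 0.951 in T0 and 6.48 in TamR, whereas the 10 at higher coordinates averaged 8.69 and 7.86.

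The bins that changed compartment near ABCC2 were the 5 at chr10:100500001-101000000, with a mean of -1.93 in T0, -1.07 in T1, -1.15 in T4, -0.991 in T16, -0.297 in T24 and 5.77 in TamR. All were below 0 in T0, T1, T4 and T16, the 2 nearest to the gene had reached 0.004 and 0.145 in T24, and all lay far above the parental libraries in TamR. HPSE2, a heparanase homologue that spans this stretch, scored -1.66 in T0 and 5.94 in TamR and changed compartment. The A stretch that holds ABCC2 was 5 Mb in T0 (chr10:101000001-106000000), 5.2 Mb in T24 and 8.7 Mb in TamR (chr10:97400001-106100000). In T0 the gene lay 5 bins from the lower end of its A stretch, and in TamR 41 bins. On the near side CUTC and COX15, which act in copper handling and haem A synthesis, scored 5.80 and 5.29 in T0 and 7.62 and 7.29 in TamR. On the far side DNMBP scored 7.40 and 7.31.

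ABCC3 (chr17:48712138-48769614, plus strand, ENSG00000108846.16_6) encodes MRP3, the basolateral exporter of glucuronides and bile salts. Its body fell within 1 bin, which scored 11.8 in T0, 10.1 in T1, 10.7 in T4, 10.7 in T16, 10.2 in T24 and 9.39 in TamR. T0 was the highest and TamR the lowest, with a difference of -0.668 from the lowest parental library, T1. The difference between TamR and T0, -2.40, was the largest of the 7 in size and stood at percentile 76.8 of the absolute differences of all genes. All 4 E2 libraries were below T0, and the T24 minus T0 difference of -1.55 was at percentile 3.69, whereas genes in the same decile of G and C content had a median of 0.485. Without T0, with T1 as the reference, the TamR difference was -0.668. The value rests on a single bin, which also holds ANKRD40, the end of CACNA1G and the start of LUC7L3. LUC7L3, CACNA1G and SPATA20 scored 10.4, 11.4 and 11.0 in T0 and 8.57, 9.21 and 9.02 in TamR.

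The far flank of ABCC3 went the other way. The 4 bins at chr17:49400001-49800000 averaged -3.63 in T0, stayed between -4.00 and -3.50 over the E2 libraries and averaged 0.850 in TamR. Each of the 4 was below 0 in every parental library and above 0 in TamR only. The A stretch around ABCC3 kept its length of 4.7 Mb in all parental libraries and measured 5.1 Mb in TamR. CA10, a carbonic anhydrase-related gene part of which lies there, remained in B over its whole body, at -6.77 in T0 and -2.57 in TamR.

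ABCC4 (chr13:95672089-95953729, minus strand, ENSG00000125257.16_13) encodes MRP4, an exporter of cyclic nucleotides, prostaglandins and nucleotide analogues. Its 4 bins averaged -2.39 in T0, -2.33 in T1, -2.32 in T4, -2.66 in T16, -2.48 in T24 and -1.86 in TamR. The parental libraries were close together, with an SD of 0.140 and a range of 0.342 that stood at percentile 2.28 of the ranges of all genes. TamR was above all of them by 0.465. The gene was not uniform: the bin at its start scored -0.979 in T0 and -1.29 in TamR, and the bin at its far end -4.35 and -3.07.

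Both flanks of ABCC4 differed more between T0 and TamR than the gene. Of the 24 bins of its window, 18 were higher in TamR than in T0, beside 45% of all bins, and 17 lay above all 5 parental libraries, beside 35%. The 10 bins beyond its end averaged -5.49 in T0 and -1.65 in TamR, with parental means between -5.57 and -5.40. On the side of the start, the 5 bins at chr13:96500001-97000000 were below 0 in every parental library and above 0 in TamR, with a mean of -3.19 in T0 and 0.668 in TamR. They hold parts of UGGT2, a glycoprotein quality control enzyme (-1.27 in T0 and 0.876 in TamR over its whole body, which also reaches into an A bin), and of HS6ST3, a heparan sulfate sulfotransferase (-4.85 and 0.776), and both genes changed compartment. Between these bins and the gene lay 2 A bins, chr13:96300001-96500000, which scored 1.86 and 1.16 in T0 and -0.633 and -0.233 in T24. With these below 0 in T24 alone, the B stretch around ABCC4 measured 11.7 Mb there and 9.4 Mb in the other 5 libraries. The gene itself did not follow, with a T24 minus T0 difference of -0.0852. The nearest genes on the side of the start, CLDN10 and DZIP1, scored -0.900 and -0.835 in T0 and -0.954 and -1.16 in TamR. Beyond the gene end, SOX21 and GPR180 scored -4.00 and -1.78 in T0 and -2.05 and -0.552 in TamR, above all parental libraries.

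ABCG2 (chr4:89011302-89152780, minus strand, ENSG00000118777.12_14) encodes the breast cancer resistance protein, which works as a dimer and exports mitoxantrone, topotecan and urate. Its 2 bins averaged 3.73 in T0, 3.49 in T1, 3.90 in T4, 3.04 in T16, 2.59 in T24 and 3.72 in TamR. T24 was the lowest and T4 the highest, and TamR and T0 differed by -0.0037, which is at percentile 0.0736 of the absolute differences of all genes. Set against T1, the TamR difference was 0.230. This near-zero mean joined opposite movements of its bins. The bin at the annotated gene start scored 3.26 in T0 and 4.02 in TamR. The other bin, which holds the ABCG2 promoter stretch printed above and most of the RefSeq starts, scored 4.20 and 3.43. T24 was the lowest of the parental libraries for ABCB1, ABCB4 and ABCG2, 3 of the 7 genes beside 28.8% of all genes, and the highest for none, beside 35.2%.

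In the ABCG2 window T24 was below T0 in 21 of 22 bins, beside 51.3% of all bins. The T24 minus T0 difference of the gene, -1.13, was at percentile 10.04, and genes in the same decile of G and C content had a median of -0.321. The 10 bins beyond the start averaged 1.54 in T0, 0.442 in T24 and 2.79 in TamR, and 2 of them changed from B in T0 to A in TamR. The A stretch around the gene was 3.1 to 3.4 Mb in T0, T1, T4 and T16, 6.4 Mb in T24 (chr4:83300001-89700000) and 4.1 Mb in TamR (chr4:86700001-90800000). It reached farther to lower coordinates in T24 and farther to higher coordinates in TamR. PPM1K and HERC6, a mitochondrial phosphatase and a ubiquitin ligase on that side, scored 3.52 and 3.27 in T0 and 4.66 and 4.39 in TamR, while PKD2 and SPP1 beyond the gene end scored 3.83 and 3.46 in T0 and 3.15 and 3.04 in TamR.

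Ordered by the mean over the parental libraries, ABCC3 was highest at 10.7 (SD 0.673), followed by ABCC1 at 7.88 (SD 0.771), ABCC2 at 6.92 (SD 0.292), ABCG2 at 3.35 (SD 0.533), ABCB4 at -1.10 (SD 0.427), ABCB1 at -1.42 (SD 0.586) and ABCC4 at -2.44 (SD 0.140), each over 5 libraries. The ranges of neighbours in this order overlapped for ABCC1 and ABCC2, for ABCB4 and ABCB1, and for ABCB1 and ABCC4, so that those neighbours were not separated. ABCC3, ABCG2 and the 3 B genes as a set did not overlap with the next level. In TamR, ABCC4 stood above ABCB4 and ABCB1.

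Over the 7 genes the median TamR minus T0 difference was -0.0037 and the median absolute difference 0.882, beside -0.383 and 1.31 over all 19710 genes. The largest absolute difference of the 7 was 2.40, and among all genes 15.9. The histogram of differences shows the 7 genes inside its central part.

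**Figure D3:**
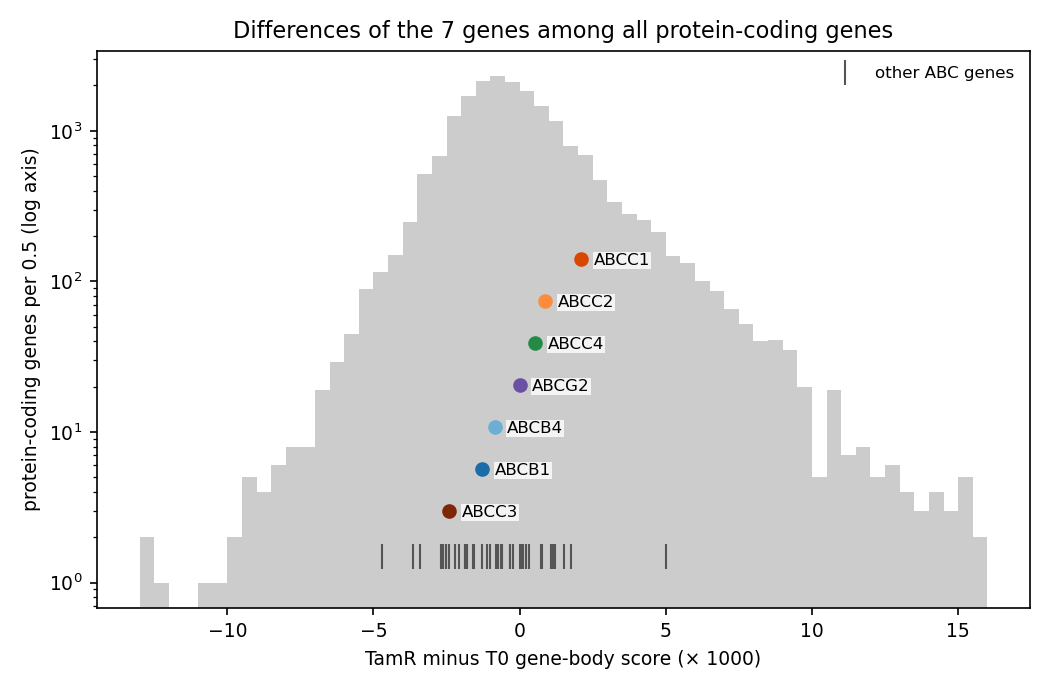
Number of protein-coding genes (vertical log axis) by TamR minus T0 gene-body score (× 1000, horizontal axis, steps of 0.5), with the 7 genes as coloured points and the 41 other ABC genes as short lines. Point heights only separate the names, and the 7 genes lie between -2.40 and 2.10.

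The neighbourhoods changed compartment at about the background rate but mostly in 1 direction. Counting shared bins once, the 7 windows held 136 bins, of which 129 were scored. Of these, 21 (16.3%) differed in compartment between T0 and TamR, beside 13.9% of all bins. The change was from B to A in 20 bins, beside 7.67% of all bins, and from A to B in 1 bin, beside 6.27%. The 20 bins lay in 5 windows, 4 near ABCC1, 5 near ABCC2, 4 near ABCC3, 5 near ABCC4 and 2 near ABCG2, mostly as runs of adjacent bins, so that they are few independent events. Of the 129 bins, 13 kept 1 sign over the 5 parental libraries and had the opposite sign in TamR, beside 10.1% of all bins, and 13 had mixed signs over the parental libraries, a share of 10.1% beside 7.11%. Of the 129, 69 were in A in T0, where 46.2% of all bins were, and 88 in TamR.

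The 41 other genes of the ABC family, which were all measured, gave a comparison by family and not by function. Of these, 27 were in A and 10 in B in all 6 libraries, beside 71.6% and 16.6% of all genes. The 10 include ABCA5, ABCA6, ABCA8, ABCA9 and ABCA10. These lie side by side on chromosome 17 and share bins, so they are not independent loci. Between T0 and TamR 4 of the 41 changed compartment, beside 9.6% of all genes, whereas none of the 7 efflux genes did. With such numbers the lists cannot be said to differ. CFTR, the chloride channel of epithelia, went from 0.261 in T0 to -4.46 in TamR, and ABCB11, the bile salt export pump, from 1.14 to -1.37. Both were near the border in parental cells: CFTR was already below 0 in T1, T16 and T24 (-0.703 in T24), and ABCB11 in T24 (-0.542). ABCA1, the cholesterol efflux transporter, went from -1.23 to 0.277, above all parental libraries, and ABCC12 from -0.059 to 1.15, inside the parental range. The 3 largest falls were those of CFTR, the potassium channel subunit gene ABCC9 (-2.44 in T0, -6.07 in TamR) and the mitochondrial ABCB8 (9.53 and 6.11). The 3 largest rises were those of ABCA13 (-6.55 and -1.54), the sterol transporter gene ABCG1 (10.004 and 11.8) and ABCA1.

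TamR was below all 5 parental libraries for 24 of the 41, beside 46.7% of all genes, and above all 5 for 6, beside 30.4%. The median TamR minus T0 difference was -0.756 over the 41 genes and -0.383 over all genes, and the median absolute difference was 1.21 and 1.31. Of the ABCC subfamily of 12 genes, to which 4 of the efflux genes belong, TamR was below all 5 parental libraries for 5 and above for 4, and the median difference was 0.314. Of the 11 ABCB genes, ABCB1 and ABCB4 included, TamR was below for 9 and above for 1, and the median difference was -1.28. ABCB1 and ABCB4 share a bin, as do TAP1 and TAP2 of this subfamily and, among the 41, ABCG5 and ABCG8. These counts therefore hold fewer independent loci than genes. ABCC6, the neighbour of ABCC1 and its relative in sequence, scored 7.45 in T0, 9.57 in T16 and 8.22 in TamR from the bin they share.

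**Figure D4:**
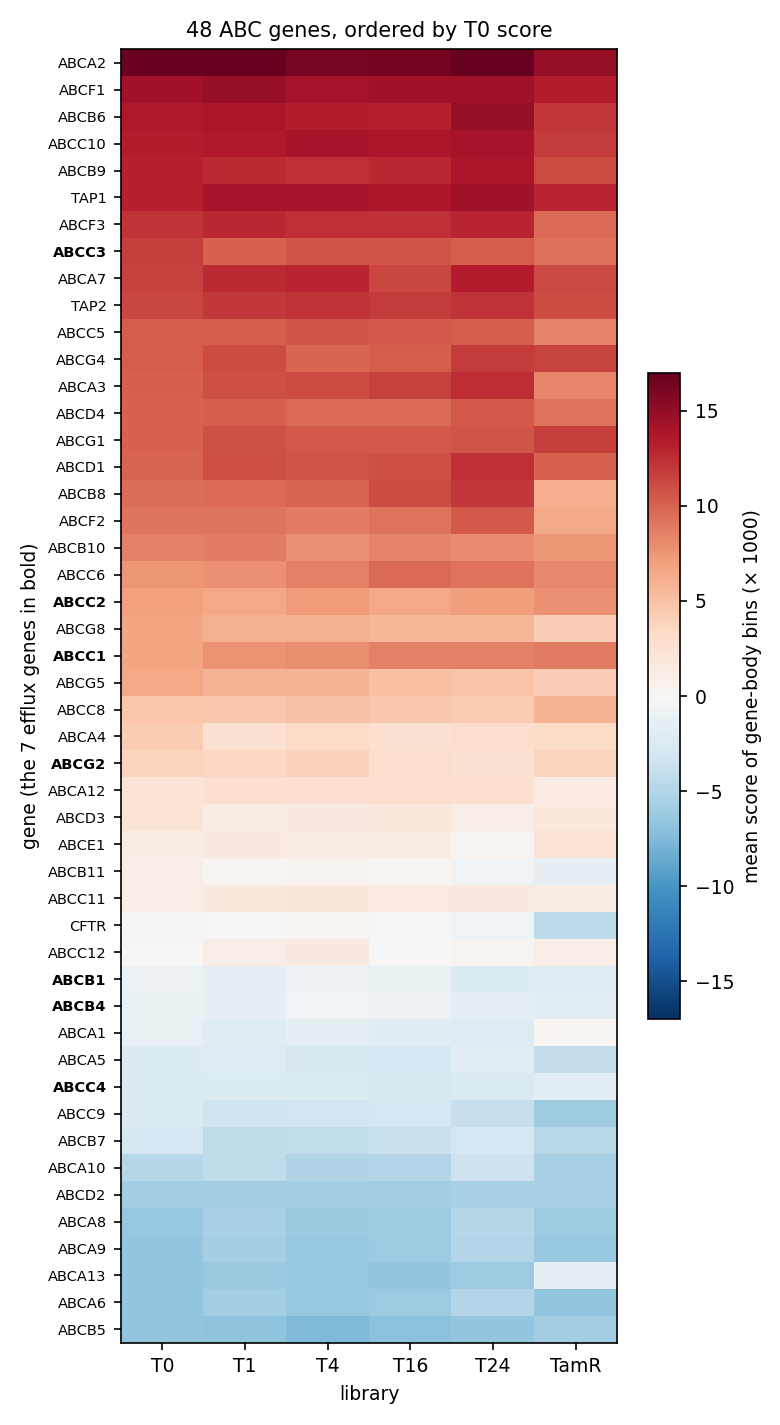
Gene-body scores (× 1000, colour scale from blue for B through white at 0 to red for A) of the 48 ABC genes in 6 libraries, ordered by the T0 score, with the 7 efflux genes in bold. The efflux genes are spread over the order, from ABCC3 near the top to ABCC4 among the B genes.

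A further list held 12 genes for transcription factors that are known to act on efflux pump genes or on the hormone response. The list was made with earlier results of these data known, so its counts and medians are not independent of the scores. Of the 12, 4 changed compartment between T0 and TamR, beside 9.6% of all genes. NFE2L2, the oxidative stress factor, went from 1.61 in T0 to -1.85 in TamR, and ESR1, the gene for the estrogen receptor, from 2.89 to -0.510. FOXO1 went from -4.65 to 0.0995, close to the border, and HIF1A, the hypoxia factor, from -0.654 to 2.54. NR1I2, the xenobiotic receptor that acts on ABCB1 in liver, scored 0.210 in T0, was below 0 in all 4 E2 libraries and scored 0.290 in TamR. TamR was below all 5 parental libraries for 5 of the 12, beside 46.7% of all genes, and above for 6, beside 30.4%, and the median absolute difference was 2.56, beside 1.31. A compartment is not a measure of a factor's activity, and no relation between these genes and the pumps was measured.

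Many other genes had nearly the same 6 scores as an efflux gene. By the root mean square difference over the 6 libraries, the protein-coding genes on other chromosomes most like ABCB1 were RFXAP at 0.233 and TBC1D5 at 0.237, and those most like ABCB4 were STON2 at 0.212 and ZNF124 at 0.213. S100PBP at 0.249 and KLK10 at 0.279 were nearest to ABCC1, and PSMG4 at 0.183 and SLC22A23 at 0.193 to ABCC2. EIF2B1 and GTF2H3, which share their bins, were nearest to ABCC3 at 0.400. ADAM19 at 0.175 and BEND4 at 0.178 were nearest to ABCC4, and ALDH1A2 at 0.161 and PDHX at 0.195 to ABCG2. Within a root mean square difference of 0.5 there were 13 genes for ABCC3, 33 for ABCC1 and 103 to 135 for each of the other 5. The measure rests on 6 libraries and mostly follows the level of the score.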

How the data were processed

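TCC, in which nuclei were digested with HindIII and ligated on beads, was measured in 6 T47D libraries, 1 per condition. The study's methods name bowtie2 for iterative mapping on hg19 and HiCLib for all later steps: artefact pairs and poorly covered bins were removed, the matrix was corrected iteratively, and the first eigenvector was taken from contacts between chromosomes. The authors deposited this as 1 score per 100 Kb bin, with 0 where no value exists. Whether T47D libraries pooled replicates is not given in the sources used here, and the depth per library is unknown from the deposited scores. Bin ends matched GRCh37 chromosome lengths.

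From these scores, the gene value was the mean of the bins overlapping the GENCODE v44 (lifted to GRCh37) gene body and scored in all 6 libraries, and compartment was its sign. Scores were multiplied by 1000. Of 20149 annotated protein-coding genes, 19710 had a value. Counts over members stand beside the same counts over all genes or bins. G and C content and HindIII sites were computed from GRCh37. Named besides the 7 genes were other ABC genes and regulators that changed compartment and the 3 largest rises and falls of other ABC genes. The 2 most alike genes were named too, with most but not all of the nearest 2 genes on each side. Outside this rule, some genes in bins that changed compartment, ABCC6 and NR1I2 were added after their values were seen. The members and lists were chosen with earlier results of these data known. The alternatives were other gene values (start bin, median, 1 or 10 more bins on either side), bins at 0 kept, rescaling, percentile ranks, each parental library left out, and the parental mean as reference. Python 3.11.15, numpy 2.4.6, pandas 2.3.3 and matplotlib 3.10.9 were used, and the calling of compartment changes was tested on simulated tracks. No test between conditions was made.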

Additional observations from a re-analysis of the deposited data

How the results depend on the processing

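No paired analysis was possible because no result comes from a test and the 6 libraries are 6 conditions. The count of efflux genes that changed compartment between T0 and TamR was 0 under all 13 alternatives. The count that left its T0 compartment in an E2 library was 0 under 11 alternatives and 1 with percentile ranks and the border at the median bin, where ABCB4 crossed. TamR was below all parental libraries compared for 2 or 3 genes and above all of them for 2 to 4 under the 12 alternatives that give these counts, 5 of which compare 4 parental libraries, and ABCB1 joined the lower set without T24, with percentile ranks, and with 1 or 10 bins added on either side. With the start bin ABCC4 took the place of ABCB4 in the lower set, and ABCG2 its place in the upper set, which ABCG2 also joined with 1 or 10 added bins. ABCC1 left the upper set with the median of its bins and with 10 added bins, where ABCC3 left the lower set. The TamR minus T0 difference reversed for ABCC4 with the bin that holds the gene start (-0.309) and for ABCG2 with that bin (0.756), with 1 added bin (0.209), with 10 added bins (0.354), without T0 (0.230) and against the parental mean (0.372). Leaving out a library moved the difference of ABCG2 between -0.0037 and 0.230, and without T0 those of ABCB1, ABCC1, ABCC2 and ABCC3 were -0.710, 1.20, 1.18 and -0.668. The differences of ABCB1, ABCB4, ABCC1, ABCC2 and ABCC3 kept their sign under all 13 alternatives. With 1 library per condition and unknown depth, no size could be set against replicate error, and a difference near the parental SD of a gene (0.140 to 0.771) was not separable from it.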

Other observations

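PGR, the gene for the progesterone receptor and a member of the list of 12 regulators, was named after its values were seen, since its difference was the largest of that list. It scored -0.276 in T0, 0.847 in T1, 0.728 in T4, 0.630 in T16, 0.291 in T24 and -6.62 in TamR. All 4 E2 libraries were in A and T0 was slightly below 0, so that PGR is not counted among the compartment changes from T0 to TamR, although its TamR minus T0 difference was -6.34.

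The 3 ABCF genes, whose proteins act in translation and not in transport, were in A in all 6 libraries, as were 71.6% of all genes. Their median was 12.3 in T0, and their median TamR minus T0 difference was -2.64. TamR was below all 5 parental libraries for all 3, beside 46.7% of all genes, and 3 genes are too few to be set apart from that share. Of the 12 ABCA genes, many of which carry lipids, 5 were in A and 6 in B in all 6 libraries, beside 71.6% and 16.6% of all genes. ABCA5, ABCA6, ABCA8, ABCA9 and ABCA10, all of them in B, lie side by side on chromosome 17 with shared bins. The B count therefore holds fewer loci than genes, and no difference from the share of all genes can be read from it. The 5 ABCG genes, ABCG2 included, were in A in all 6 libraries, beside 71.6% of all genes, with a median of 6.73 in T0.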
